A study of Homo sapiens with 2 samples.

Results

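The genes described are LIG4 and the other core genes of classical non-homologous end joining, 10 of the 16399 genes listed for each library. They were taken by Entrez ID from a set of names (LIG4, XRCC4, NHEJ1, PAXX, XRCC5, XRCC6, PRKDC, DCLRE1C, POLL and POLM), a rule that uses no measured value, although the set was drawn up with earlier results of these data known. All 10 were listed, all 10 reached 1 CPM (counts scaled to a library total of 1000000), and all 10 had whole-number counts in both libraries. RNA was sequenced from A549, an established human lung adenocarcinoma line, with 1 library from cells made to overexpress plakophilin 2 (PKP2) with an SFB tag and 1 library from cells labelled vector. Both cultures were A549 cells at passage 5 grown in DMEM with serum. The estimated counts summed to 16808842 in the PKP2 library and 16996976 in the vector library.

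Non-homologous end joining closes DNA double-strand breaks without a template and works in every phase of the cell cycle. The Ku heterodimer (XRCC6 and XRCC5) slides onto the broken ends and recruits the kinase DNA-PKcs (PRKDC). The nuclease Artemis (DCLRE1C) and the polymerases lambda and mu (POLL and POLM) trim and fill ends that do not match, and ligase IV (LIG4), held by its scaffold XRCC4 with the help of XLF (NHEJ1) and PAXX, seals them. In tumour cells the pathway is studied above all for resistance to ionising radiation. The series was made to look for genes downstream of PKP2, a desmosomal plaque protein, and LIG4 was set against the partners of its product.

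LIG4 stood apart from its partners. It was 1.63-fold higher in the PKP2 library, whereas its scaffold XRCC4 was 1.29-fold lower and the kinase gene PRKDC 1.38-fold lower. The remaining 7 genes lay between a ratio of 0.912 for NHEJ1 and 1.18 for PAXX. Each group was a single library, so differences had no replicate check and no test was possible. Each interval given is an exact 95% counting interval, and every statement compares these libraries and not the conditions.

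At a step of 1.2-fold, set on the log2(CPM + 1) scale, 1 member (LIG4) was higher, where 8.7% of all 12820 expressed genes were. PRKDC and XRCC4 were lower by that step, 2 of 10 members, where 11% of expressed genes were. At 1.5-fold LIG4 was again the 1 member that was higher, beside 0.733% of expressed genes, and 0 members were lower, beside 0.788%. The counting interval lay above 1 for LIG4, PAXX and XRCC6, 3 of 10 members against 16.3% of expressed genes, and below 1 for PRKDC and XRCC4, 2 of 10 against 19.8%. The median difference of the 10 members, PKP2 minus vector, was 0.00 on the log2(CPM + 1) scale, and that of all expressed genes was -0.00. With 10 members 1 gene is 10% of the set, and none of these counts is read as particular to it.

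**Figure D1:**
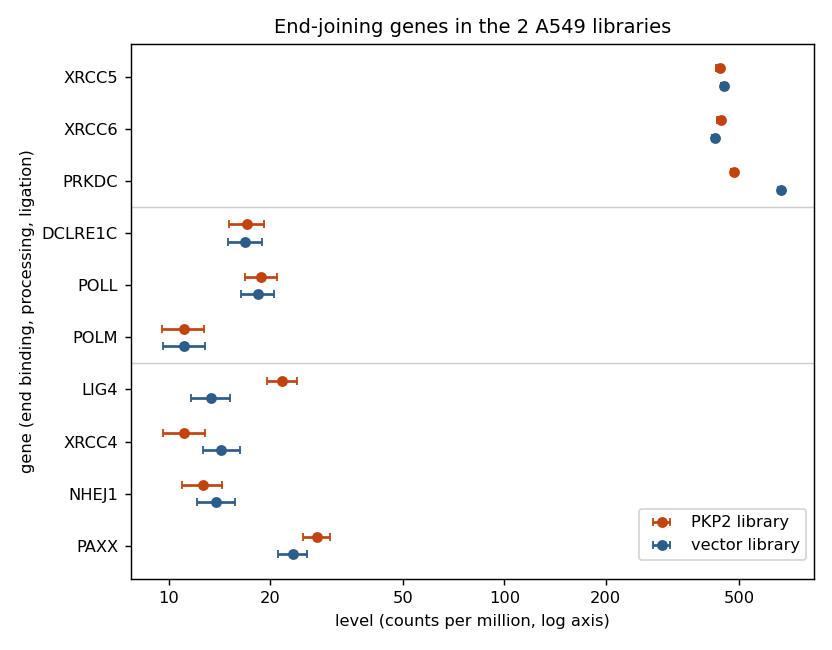
Level of the 10 end-joining genes in CPM (log axis) in the PKP2 library and the vector library, 1 point per library, with exact 95% Poisson counting intervals as bars. XRCC5, XRCC6 and PRKDC lie at 424 CPM or more in both libraries and the other 7 genes at 27.6 CPM or less, and the LIG4 points (21.8 and 13.4 CPM) do not overlap in their counting intervals.

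The libraries carried the labelled difference and the line's usual markers. PKP2 had 268 CPM in the PKP2 library and 27.3 CPM in the vector library. The 5 epithelial markers summed to 9690 and 9604 CPM in the PKP2 and vector libraries, although EPCAM was at 1.37 and 1.47 CPM. The 5 enzyme genes that A549 expresses strongly summed to 12957 and 12867 CPM in the PKP2 and vector libraries. The alveolar type II genes NAPSA, NKX2-1 and SFTPB were below 1 CPM in both, with SFTPB at 1 count in the PKP2 library and 0 in the vector library, which allows up to 0.177 CPM there. The leukocyte genes CD79A and LYZ and the endothelial gene CDH5 were below 1 CPM in both libraries, and COL1A1 was the 1 fibroblast marker above it, at 10.4 and 8.12 CPM in the PKP2 and vector libraries.

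The Ku genes were the most abundant members per length of the longest transcript (with median transcript lengths PRKDC came first) and were close to equal between the libraries. XRCC6, which encodes Ku70 (chromosome 22, 41621119 to 41664048, plus strand, GRCh38), had 7399 counts (440.2 CPM) in the PKP2 library and 7200 counts (424 CPM) in the vector library. Its ratio was 1.04 (1.01 to 1.07), the smallest difference among the members whose interval lay off 1. XRCC5, which encodes Ku80 (chromosome 2, 216107464 to 216206303, plus strand), had 7354 counts (438 CPM) in the PKP2 library and 7650 counts (450.1 CPM) in the vector library. Its ratio of 0.972 had an interval of 0.941 to 1.004, which includes 1. Relative to XRCC5, XRCC6 in the PKP2 library was 1.07-fold higher (1.02 to 1.12), and 1.01-fold once a trend on transcript length and GC content was taken out. The XRCC6 difference was then 0.01 on the log2(CPM + 1) scale in place of 0.06, within its counting error. Scaled by the longest annotated transcript, the 2 subunits stood at 429 TPM for XRCC6 and 307 TPM for XRCC5 in the PKP2 library, against 431 and 330.01 TPM in the vector library. Ku70 and Ku80 act as an obligate pair, and the ratio of their transcript levels rests on the length used. The median was taken over all annotated transcripts, short ones included. It was 2077 nucleotides for XRCC6, 610 for XRCC5 and 659 for PRKDC. Their longest transcripts had 2709, 3761 and 13509 nucleotides in the same order. XRCC6 over XRCC5 was 1.40 in the PKP2 library and 1.31 in the vector library with the longest transcripts, but 0.295 and 0.276 in the PKP2 and vector libraries with median transcript lengths.

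PRKDC did not follow the Ku genes that its product binds. The gene, which encodes the catalytic subunit of DNA-PK (chromosome 8, 47773108 to 47960183, minus strand), had 8097 counts (482 CPM) in the PKP2 library and 11301 counts (665 CPM) in the vector library. It was lower in the PKP2 library by 1.38-fold (1.34 to 1.42). Set against XRCC5 it was 1.34-fold lower (1.29 to 1.40), and against XRCC6 1.43-fold lower (1.37 to 1.498), which the same trend, taken out, left at 1.202-fold and 1.22-fold. PRKDC is the longest member, with a transcript of 13509 nucleotides, and long transcripts were lower in the PKP2 library as a whole. Genes averaging at least 5 CPM were put into 5 groups of equal size by length. The group of 6109 nucleotides or more had a median difference of -0.16 on the log2(CPM + 1) scale, and the group of 2232 or fewer had one of 0.13. The trend, once taken out, left a PRKDC difference of -0.28 in place of -0.46. The part of length in the PRKDC result was not tested further.

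**Figure D2:**
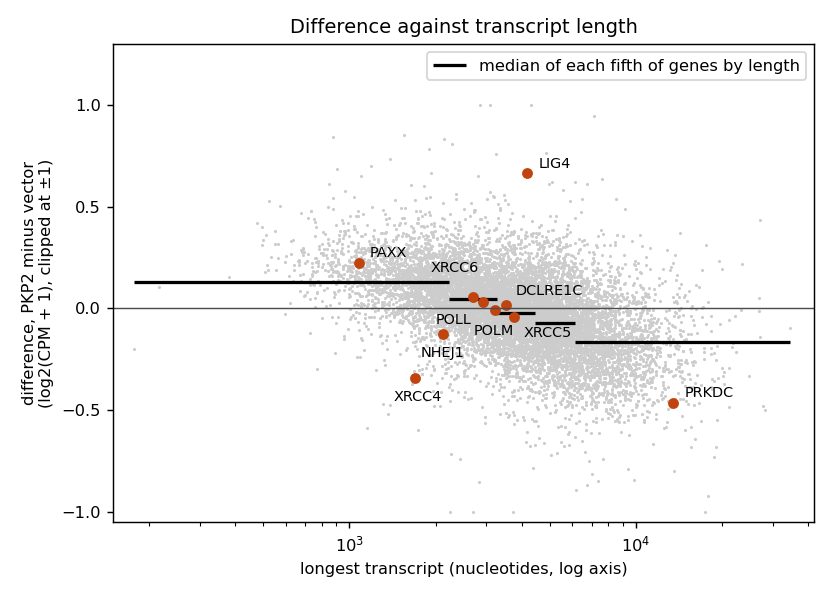
Difference between the libraries (PKP2 minus vector, log2(CPM + 1)) against the longest transcript in nucleotides (log axis) for genes averaging at least 5 CPM (grey), with black lines at the median of each of 5 length groups, drawn over its length range. The group medians run between 0.13 for the shortest and -0.16 for the longest genes, and LIG4 (0.67), XRCC4 (-0.34), NHEJ1 (-0.12), POLM (-0.01) and DCLRE1C (0.02) lie on the side of 0 opposite to the median of their own group.

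The genes that process and fill ends were level between the libraries. DCLRE1C, the Artemis nuclease gene (chromosome 10, 14897359 to 14954432, minus strand), had 287 counts in each library, or 17.1 CPM in the PKP2 library and 16.9 CPM in the vector library. POLL (chromosome 10, 101578882 to 101588270, minus strand), which encodes the gap-filling polymerase lambda, had 317 counts (18.9 CPM) in the PKP2 library and 313 counts (18.4 CPM) in the vector library. POLM (chromosome 7, 44072247 to 44082540, minus strand), whose polymerase mu can extend ends with little template, had 186 counts (11.07 CPM) in the PKP2 library and 189 counts (11.1 CPM) in the vector library. None of these 3 differences was detectable at this depth. The ratios were 1.01 for DCLRE1C (0.856 to 1.195), 1.02 for POLL (0.873 to 1.201) and 0.995 for POLM (0.808 to 1.22). A further family X polymerase outside the core set, POLB of base excision repair, had 12.02 CPM in the PKP2 library and 13.5 CPM in the vector library, with a ratio of 0.892 (0.735 to 1.08).

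Among the ligation genes, LIG4 and XRCC4 lay on opposite sides. LIG4 (Entrez 3981, chromosome 13, 108207439 to 108218368, minus strand, GRCh38) had 366 counts (21.8 CPM) in the PKP2 library and 227 counts (13.4 CPM) in the vector library, a ratio of 1.63 (1.38 to 1.93). XRCC4 (chromosome 5, 83077498 to 83353787, plus strand), the coiled-coil scaffold that stabilises ligase IV, had 187 counts (11.1 CPM) in the PKP2 library and 244 counts (14.4 CPM) in the vector library, and was 1.29-fold lower (1.06 to 1.57). The LIG4 count was the higher of the pair in the PKP2 library and the lower of the pair in the vector library. NHEJ1 (chromosome 2, 219075317 to 219160865, minus strand), which encodes the XRCC4-like factor XLF, had 212 counts (12.6 CPM) in the PKP2 library and 235 counts (13.8 CPM) in the vector library. Its ratio of 0.912 had an interval of 0.754 to 1.10, so no difference was detectable. PAXX (chromosome 9, 136992418 to 136993984, plus strand), a paralog of XRCC4 and XLF that binds Ku, had 464 counts (27.6 CPM) in the PKP2 library and 399 counts (23.5 CPM) in the vector library, a ratio of 1.18 (1.03 to 1.35). PAXX has the shortest longest-transcript of the set (1077 nucleotides) and the highest GC content (65.4%), and its difference of 0.22 on the log2(CPM + 1) scale was -0.01 once that trend was taken out. The LIG4 difference was 0.76 in place of 0.67 under the same correction and that of XRCC4 -0.37 in place of -0.34.

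**Figure D3:**
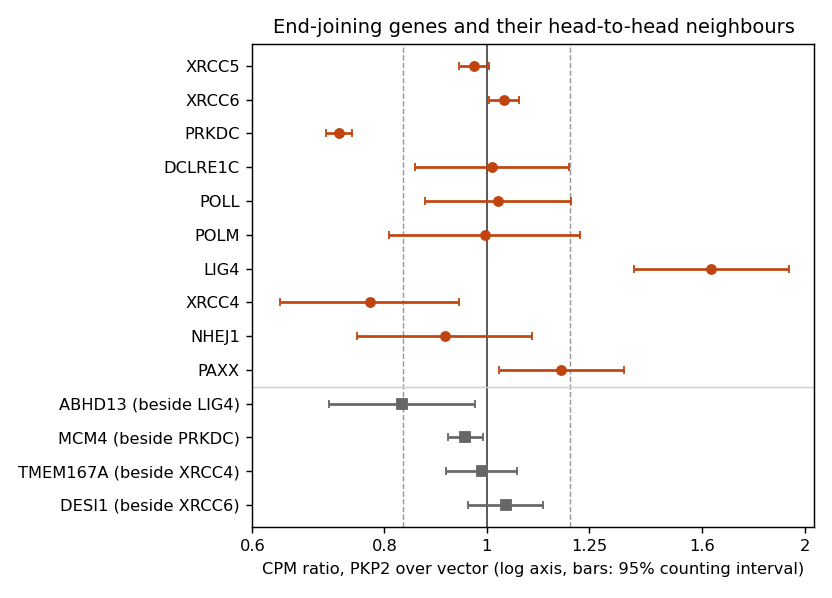
CPM ratio, PKP2 over vector (log axis), for the 10 end-joining genes (circles) and for the genes that start head to head with 4 of them (grey squares), with exact 95% counting intervals as bars and dashed lines at 1.2-fold. LIG4 (1.63) lies right of all others, PRKDC (0.725) and XRCC4 (0.775) lie left, and ABHD13 (0.832) lies on the other side of 1 from LIG4, with which it shares its start region.

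A ratio of counts within each library does not depend on how the libraries are scaled. There were 1.96 LIG4 counts per XRCC4 count in the PKP2 library and 0.930 in the vector library, so LIG4 relative to XRCC4 was 2.10-fold higher (exact 95% counting interval 1.62 to 2.73). Relative to NHEJ1 it was 1.79-fold higher (1.38 to 2.31), and relative to PAXX 1.39-fold higher (1.11 to 1.73). The interval lay above 1 against each of the 9 other members, with PRKDC giving the largest value, 2.25 (1.90 to 2.67). All 9 values share the same LIG4 counts and are not separate findings. Per length, LIG4 stood at 0.794 of the XRCC4 level in the PKP2 library and 0.377 in the vector library. LIG4 was the member with the lowest level per length in the vector library, at 8.81 TPM, and it lay above POLM and DCLRE1C in the PKP2 library, at 13.8 TPM against 9.09 and 12.8 TPM. With median transcript lengths it was the lowest in both libraries, at 5.02 TPM in the PKP2 library against 9.83 for POLM and 7.15 for DCLRE1C. The median length was close to the longest for LIG4 (4065 and 4180 nucleotides). It was much shorter than the longest for POLM (1055.5 and 3218), DCLRE1C (2237 and 3532) and NHEJ1 (660.5 and 2113). Ranks and shares with median lengths also follow these differences in length. Of the summed TPM of LIG4, XRCC4, NHEJ1 and PAXX, LIG4 made up 12.01% in the PKP2 library and 7.99% in the vector library, and 7.94% and 5.14% in the PKP2 and vector libraries with median transcript lengths. PAXX held the most of that sum, 59.1% in the PKP2 library and 54.5% in the vector library. These are transcript levels, and protein levels of the complex were not measured.

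**Figure D4:**
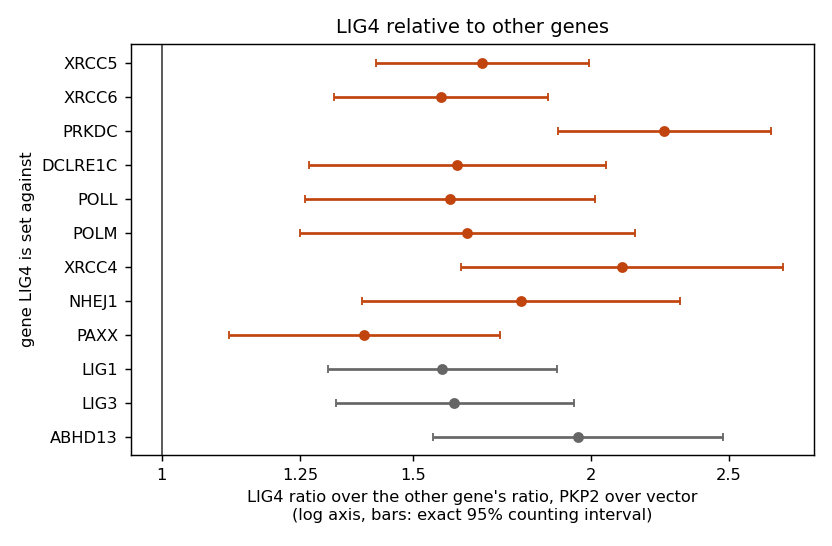
LIG4's ratio between the libraries (PKP2 over vector) divided by that of each other gene (log axis), with exact 95% counting intervals as bars, for the 9 other end-joining genes and, in grey, the other DNA ligase genes and the neighbouring gene ABHD13. All 12 intervals lie above 1, with values from 1.39 against PAXX to 2.25 against PRKDC, and all 12 share the same LIG4 counts.

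The other DNA ligase genes did not share the LIG4 difference. LIG1, the ligase of DNA replication, had 90.7 CPM in the PKP2 library and 87.5 CPM in the vector library, a ratio of 1.04 (0.964 to 1.11). LIG3, the ligase of nuclear single-strand break repair and of mitochondria, had 59.1 CPM in the PKP2 library and 58.2 CPM in the vector library, a ratio of 1.02 (0.930 to 1.11). Relative to LIG1, LIG4 was 1.57-fold higher (1.31 to 1.89), and relative to LIG3 1.604-fold higher (1.32 to 1.94). Per length LIG4 was the least abundant of the 3 in both libraries.

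Few expressed genes were as far to the higher side as LIG4. By its difference LIG4 ranked 54 of all 12820 expressed genes, 19 of 10846 genes that averaged at least 5 CPM, and 11 of the 8867 of them with whole counts. Among 2467 genes whose mean level was within 1.5-fold of its own it ranked 7, and their median difference was 0.00. Among 2646 genes whose longest transcript was within 1.2-fold of its 4180 nucleotides it ranked 3, and their median difference was -0.03. Once the trend was taken out it ranked 8 of 10798. The 5 genes with whole counts whose difference was closest to that of LIG4, a likeness in 1 difference over 2 libraries, were EFNA1, DMKN, CXCL1, MT2A and NCKAP5, with ratios between 1.57 for CXCL1 and 1.68 for NCKAP5.

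**Figure D5:**
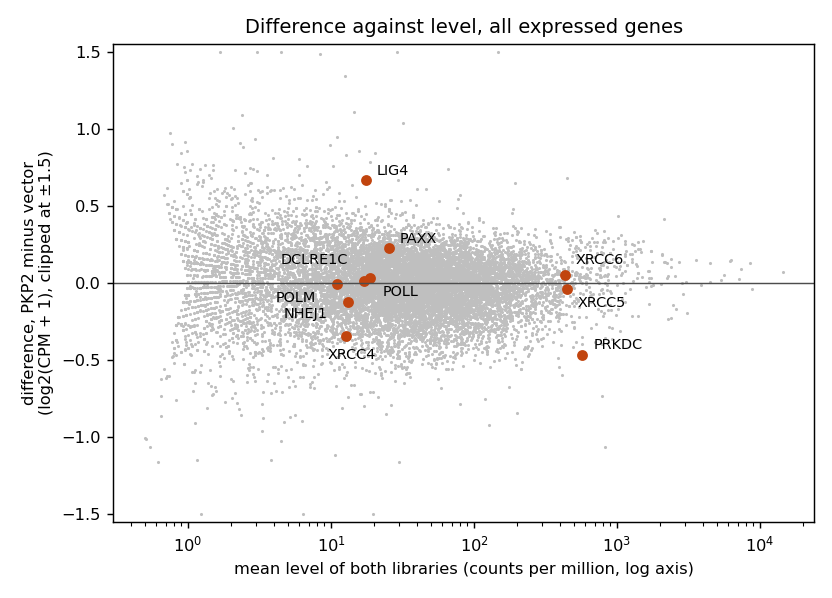
Difference between the libraries (PKP2 minus vector, log2(CPM + 1), clipped at ±1.5) against the mean level in CPM (log axis) for all 12820 expressed genes (grey), with the 10 end-joining genes in colour. LIG4 lies near the upper edge of genes of its level at 0.67, PRKDC (-0.46) near the lower edge of genes of its level, and the rest inside the cloud.

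LIG4 lies head to head with ABHD13, a gene for a predicted hydrolase, and the pair shares a start region. The RefSeq table (GRCh38.p14) places the outermost LIG4 start at 108218349 on the minus strand and the ABHD13 start at 108218392 on the plus strand of chromosome 13, with 42 bases between them. GENCODE 29 extends both first exons and leaves 10 bases. By GENCODE 29 all but 10 of the 42 lie in first exons, the capitals below in that of ABHD13. The 42 bases are shown because they lie upstream of both RefSeq starts. They are written 5′ to 3′ on the LIG4 strand (chr13:108218350-108218391, minus strand), with a match to the letters of an NRF1-type motif in capitals:
LIG4 and ABHD13 shared start region: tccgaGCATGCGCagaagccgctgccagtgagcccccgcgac

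Both genes were expressed, and their ratios lay on opposite sides of 1. ABHD13 had 288 counts (17.1 CPM) in the PKP2 library and 350 counts (20.6 CPM) in the vector library, and was 1.202-fold lower (1.03 to 1.41). Its difference was -0.25, and -0.12 with the trend taken out, which is within its counting error. LIG4 relative to ABHD13 was 1.96-fold higher (1.551 to 2.48). The LIG4 count does not say which start was used, since each of the 5 annotated transcripts in GENCODE 29 has its coding sequence in 1 exon (within 108208536 to 108211268), which they share. The RefSeq table lists 4 further LIG4 starts inside the gene, of which the outermost is at 108215536. The 250 bases before that start lie in the intron of the LIG4 transcript that reaches the outermost start, and are shown because transcripts from there would not share the ABHD13 start region. They run 5′ to 3′ on the LIG4 strand (chr13:108215537-108215786, minus strand), with the CCAAT letters in capitals:
LIG4 second start, upstream: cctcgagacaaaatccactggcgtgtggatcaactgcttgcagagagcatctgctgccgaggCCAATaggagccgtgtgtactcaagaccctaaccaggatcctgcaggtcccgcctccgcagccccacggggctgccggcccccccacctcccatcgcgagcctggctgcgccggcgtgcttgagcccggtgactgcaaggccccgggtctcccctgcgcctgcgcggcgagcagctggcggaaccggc

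Letters of 4 motifs were searched on both strands in the RefSeq windows of 300 bases (250 before a start and 50 after), of which 8 of the 10 members had 15. The TCF/LEF letters CTTTGAT, bound by the partners of beta-catenin, were in 0 of these 15 windows and in 2.62% of all 35116 windows. The cyclic AMP response element letters TGACGTCA were in 2 of the 15, both of them LIG4 windows, and in 1.85% of all windows. The NRF1-type letters GCATGCGC were in 2 of the 15, the outermost LIG4 window and the XRCC6 window, and in 3.05% of all windows. CCAAT was in 8 of the 15 and in 34.6% of all windows. Some of the LIG4 windows overlap one another, the motifs were chosen after the LIG4 sequence was seen, and a match describes letters, not binding. No occurrence of 1 motif overlapped another in the stretches printed above.

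The other genes within 500 kb of LIG4 that were analysed were close to silent. TNFSF13B had 8 counts in the PKP2 library and 5 in the vector library, and MYO16 had 3 in each, so neither gives a usable ratio. Of the other members, PRKDC, XRCC4 and XRCC6 also start within 1 kb of a gene on the opposite strand. MCM4, a replication helicase gene beside PRKDC, was at 308 CPM in the PKP2 library and 322 CPM in the vector library, a ratio of 0.954 (0.918 to 0.991), and PRKDC was 1.32-fold lower relative to it (1.26 to 1.38), or 1.17-fold with the trend taken out. TMEM167A, beside XRCC4, was at 77.9 and 78.8 CPM in the PKP2 and vector libraries, a ratio of 0.989 (0.915 to 1.07), and XRCC4 was 1.28-fold lower relative to it (1.03 to 1.58). DESI1, beside XRCC6, had a ratio of 1.04 (0.960 to 1.13), with a fractional and therefore uncertain count. XRCC4 overlaps TMEM167A by 366 bases on the other strand, DCLRE1C overlaps SUV39H2 by 6957 bases and POLL lies inside DPCD. The strand setting of the counting is not given in the sources used here, so reads from such overlaps cannot be assigned with certainty. NHEJ1 overlaps AC068946.1, which was not analysed, by 85537 bases on the same strand, where a strand setting would not separate reads. SUV39H2 had a ratio of 0.970 (0.844 to 1.12) and DPCD one of 1.01 (0.824 to 1.24).

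The wider end-joining genes held no other difference of the size of LIG4. Of 8 accessory genes, 0 were at least 1.2-fold higher, beside 8.7% of expressed genes, and 2 were lower by that step, beside 11%. WRN, the Werner syndrome helicase, was 1.31-fold lower (1.15 to 1.48), at 27.1 CPM in the PKP2 library and 35.4 CPM in the vector library, and ERCC6L2, a SNF2-family ATPase gene with a fractional count, was 1.27-fold lower (1.11 to 1.45). With the trend taken out 1 of these calls was left, as ERCC6L2 lay at -0.24 and WRN at -0.26, just at the step. The background also fell with the trend taken out. Over all expressed genes with length and GC values, 826 were then higher and 852 lower by the step. Before, 1115 and 1412 of the 12820 expressed genes were. Of 9 genes that protect break ends from resection, 1 was higher by that step and 2 were lower, against the same background shares. The higher one, SHLD1, a shieldin subunit, fell outside the naming level of 5 CPM and was named after its value was seen. It had 83 counts in the PKP2 library and 62 in the vector library, a ratio of 1.35 (0.962 to 1.91). The lower ones were RIF1, at 1.37-fold (1.27 to 1.49), and the shieldin subunit SHLD2 (fractional count), at 1.248-fold (1.14 to 1.37). None of these 3 passed the step with the trend taken out, when SHLD1 lay at 0.19, RIF1 at -0.21 and SHLD2 at -0.25. The counting interval lay below 1 for 3 of 8 accessory genes and 3 of 9 end-protection genes, against 19.8% of expressed genes. It lay above 1 for 0 of the accessory and 2 of the end-protection genes, against 16.3%. The medians were -0.10 for the accessory genes and -0.02 for the end-protection genes on the log2(CPM + 1) scale.

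The competing, microhomology-based route was near level at its median. Of its 10 genes, 1 was at least 1.2-fold lower, beside 11% of expressed genes, and 0 were higher, beside 8.7%. That gene was POLQ, which encodes the polymerase theta that anneals short homologies, 1.21-fold lower (1.10 to 1.34). It had 43.0 CPM in the PKP2 library and 52.2 CPM in the vector library. Its difference was -0.28, and -0.10, inside the step, once the trend was taken out. The counting interval lay below 1 for POLQ, RAD50 and NBN, 3 of 10 genes against 19.8% of expressed genes. It lay above 1 for XRCC1, 1 of 10 against 16.3%. The median of the 10 genes was -0.00, and PARP1, which senses breaks, had a ratio of 1.01 (0.967 to 1.06). The recombinase gene RAG1 had 4 counts in the PKP2 library and 5 in the vector library, while DNTT, RAG2 and SHLD3 were not analysed here. Of 5 beta-catenin and TCF/LEF genes, 4 were expressed, and CTNNB1 had a ratio of 0.979 (0.938 to 1.02). TCF7L1 was the 1 past the step, on the higher side, beside 8.7% of expressed genes. It was 1.44-fold higher (1.08 to 1.91), at 7.44 CPM in the PKP2 library and 5.18 CPM in the vector library. TCF7 (fractional count) had a ratio of 1.201 (1.018 to 1.414), and its difference of 0.25 on the log2(CPM + 1) scale was inside the step. The counting interval thus lay above 1 for 2 of the 4, TCF7 and TCF7L1, against 16.3% of expressed genes.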

How the data were processed

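For each library the authors deposited 1 file of estimated counts by Entrez gene, some of them fractional. Per the submitters' processing notes, HISAT2 2.0.4, Bowtie2, RSEM 1.2.12 and GRCh38.p12 were used. The sources used here do not give their roles, the annotation release, the filters or the strand setting. From the counts, CPM was the count per 1000000 of the library total, and a gene counted as expressed where either library reached 1 CPM. Differences were taken on log2(CPM + 1), PKP2 minus vector, which understates differences of low genes, and the fold was the plain CPM ratio. Exact 95% intervals followed Clopper and Pearson for a ratio (counts rounded) and a conditional test for a ratio of ratios. Intervals and floors (3 counts) cover counting error only. TPM was computed from counts and the longest GENCODE 29 transcript. A lowess trend, additive in transcript length and GC content (span 0.3), was removed as an alternative, over the 98.8% of expressed genes with both values, and it took 22.4% of the variance. Other alternatives were pseudocounts of 0.1 and 5 CPM, 2 scalings, other filters and another length. Symbols came from a RefSeq gene table of GRCh38.p14, used for names, and matched 16183 of 16399 IDs. Coordinates are from GENCODE 29 on GRCh38 and start windows from RefSeq on GRCh38.p14. The members and lists were chosen with earlier results of these data known. All 10 members were named, with list members at least 1.2-fold apart at a mean of 5 CPM or more. The calculation was tested on simulated data. The simulated counts held counting error only, with no spread between cultures. Python 3.11.15, scipy 1.17.1 and statsmodels 0.14.6 were used.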

Additional observations from a re-analysis of the deposited data

How the results depend on the processing

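The LIG4 difference was between 0.54 (pseudocount of 5 CPM) and 0.76 (length and GC trend removed) over the 5 alternatives, against 0.67 as reported. LIG4 relative to XRCC4 was 1.19 with the trend removed and 1.07 as reported on the log2 scale, and relative to NHEJ1 0.99 and 0.84. The counts of 1 member higher and 2 lower by 1.2-fold did not change under any of the 7 alternatives. The 2 filters among these could not change them, since each kept all 10 members. The count of 2 lower held narrowly. XRCC4 lay only just past the step, at -0.2634, with a pseudocount of 5 CPM, and PRKDC close to it, at -0.277, with the trend removed. PAXX had the 1 difference with a counting interval beside 1 that changed direction, to -0.00892 with the trend removed. POLL, whose interval includes 1, also changed sign there, to -0.05. With the trend removed XRCC6 lay at 0.01 and PRKDC at -0.28, moves larger than their counting error. Scaling by the median or the trimmed mean of log ratios changed no direction among the members. These log2 shifts, -0.00148 and -0.00304, were too small to change a direction or a 1.2-fold count. With the median transcript length in place of the longest, LIG4 ranked 10 of 10 members by level per length in the PKP2 library, against 8 as reported, and 10 in the vector library both ways. Chosen after seeing the data were the alternatives for the wider lists and gene pairs (trend removed) and for the LIG4 share and Ku ratio (median length). They are given beside those results or here. With the trend removed LIG4 was 1.72-fold higher relative to LIG1, 1.56-fold relative to LIG3 and 1.91-fold relative to ABHD13. XRCC4 was then 1.39-fold lower relative to TMEM167A. Also chosen after seeing the data was the background without fractional counts, 8.44% higher and 10.98% lower by 1.2-fold. No paired analysis was possible because each group has 1 library. The number of libraries limits every result, since the spread between cultures is unknown, and the 7 members with 186 to 464 counts have the widest counting intervals.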
